A study of Homo sapiens with 8 samples.

Results

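The 9 genes described here are STAB1, STAB2, LYVE1, MRC1, FCGR2B, OIT3, CRHBP, DNASE1L3 and FCN3, genes for endocytic receptors and secreted proteins that are known from sinusoidal endothelium. They were taken by gene name from the 30386 genes in the deposited table, and they were chosen with their difference between the 2 groups of samples already known. For that reason their levels in the 2 groups are described without a test. The samples are 4 of human endothelial cells (iEC) and 4 labelled as retinal endothelial cells (iREC), both made from WTC-TJP1, an established line of human induced pluripotent stem cells, and taken at passage 1. The labels name no deletion and no drug in either group, and they do not say what TJP1 in the name of the line stands for. The cell type entry of the labels calls all 8 samples endothelial cells derived from stem cells, and the labels do not say how the iREC differentiation differed. All samples come from 1 line, so the spread between samples holds no variation between donors, and the labels do not say whether the replicates C, D, E and F were separate differentiations.

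Sinusoids are the wide, leaky capillaries of liver, spleen and bone marrow. Their endothelium clears the blood of hyaluronan, modified lipoproteins, collagen fragments, mannose-bearing glycoproteins and small immune complexes, through receptors that are taken in by clathrin-coated pits and returned to the surface. In the liver the same cells also secrete or display proteins that are little expressed by other endothelia, among them the binding protein for corticotropin releasing hormone, a DNase of the blood and a ficolin. Retinal vessels are of the opposite kind, with sealed junctions.

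Depth was similar throughout, at 14877502 to 16971865 counts per iEC sample and 13739364 to 15987839 counts per iREC sample. Levels are given as counts per 1000000 counts of the library (CPM), with libraries scaled by TMM, a factor per library that keeps most genes level between samples. None of the 10 endothelial markers examined was at the floor of detection, set at 3 counts, and their sum lay between 7325 and 9420 CPM in the iEC samples and between 4306 and 9588 CPM in the iREC samples. Of these markers, PECAM1, EGFL7, ESAM and CDH5 fell in iREC (log2 changes of -1.57, -1.22, -0.94 and -0.76, edgeR) and TEK and CLDN5 rose (3.82 and 0.79). The call for CLDN5 was lost in 11 of 15 alternatives, among them both other scalings, limma-voom and the replicate block, and that for CDH5 in 5, the replicate block included. The lowest of these sums belonged to iREC F, which also had 3486 CPM over the 9 mural and mesenchymal markers, against 213, 665 and 286 CPM in replicates C, D and E and 190 to 373 CPM in iEC. Of 8 markers of retinal and brain endothelium, 7 were tested, 3 rose, 1 fell and 3 were not called. Their summed level overlapped between the groups (282 to 459 CPM in iEC, 267 to 518 CPM in iREC). In every sample the largest part of that sum was TFRC, which was not called. It had 196 to 372 CPM in iEC and 156 to 219 CPM in iREC. The overlap of the sums therefore says little of the other markers. Those called were SLC2A1, ABCB1 and ABCG2, which rose, and SLC38A5, which fell. In bulk samples, a higher level in each cell and a larger share of cells with the gene cannot be told apart.

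Markers of the other cells that carry these receptors were examined as well. Of 14 macrophage and myeloid markers, 11 were in the table, and their sum reached 0.501 to 1.24 CPM per iEC sample and 2.55 to 4.19 CPM per iREC sample. At or under 3 counts in every iREC sample were CD14, ITGAM, SPI1, TYROBP, LYZ and CD68. In iEC 8 markers were, namely CD14, SPI1, TYROBP, LYZ, CD68, PTPRC, MS4A7 and CD163. PTPRC, the leukocyte surface phosphatase CD45, was the 1 myeloid marker that passed the filter on low counts, with 42, 17, 13 and 27 counts in iREC C, D, E and F and 0 in all iEC samples, which is at least 33.6-fold higher against a floor of 3 counts over the iEC group (edgeR adjusted p = 0.00243). With 0 counts in iEC, PTPRC passed the filter only through iREC, so its call and p-value add no independent support. Of 5 lymphatic markers, 4 were in the table with a summed level of 165 to 256 CPM in iEC and 180 to 251 CPM in iREC, and 0 of the 2 tested were called. That sum was almost wholly FLT4, the VEGF-C receptor (201 and 202 CPM on average), while PROX1, the factor that defines lymphatic endothelium, had at most 7 counts in any sample. Of 6 hepatocyte markers, 4 were in the table. Their sum of 16.3 to 73.4 CPM in iREC was nearly all TTR, the transthyretin gene (named, like ALB, after its values were seen), with 1116, 460, 680 and 229 counts in iREC C, D, E and F and 3 counts in total in iEC, whereas ALB, the albumin gene, had at most 1 count in any iREC sample.

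STAB1 and STAB2 encode the 2 stabilins, large receptors of the same domain plan that arose from a common ancestor. Their upstream sequences are shown because both groups expressed STAB1, whereas STAB2 was nearly silent in iEC. Both are the 250 bases before the RefSeq start on GRCh38.p14, plus strand, 5′ to 3′, and capitals mark the letters TGCTGA or their reverse complement TCAGCA, the core half-site known for large MAF factors; the STAB1 window is chr3:52495088-52495337 and the STAB2 window is chr12:103587023-103587272.
STAB1: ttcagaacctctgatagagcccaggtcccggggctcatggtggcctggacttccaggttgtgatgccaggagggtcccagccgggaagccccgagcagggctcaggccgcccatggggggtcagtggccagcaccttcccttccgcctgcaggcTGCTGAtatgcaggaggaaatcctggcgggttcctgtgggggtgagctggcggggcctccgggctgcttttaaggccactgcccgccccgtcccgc
STAB2: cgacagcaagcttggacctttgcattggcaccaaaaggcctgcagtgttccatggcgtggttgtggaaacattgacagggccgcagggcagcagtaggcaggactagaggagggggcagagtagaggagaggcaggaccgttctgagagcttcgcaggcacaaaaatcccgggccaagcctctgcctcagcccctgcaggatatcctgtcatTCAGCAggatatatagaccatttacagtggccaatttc
Each window held 1 copy of that half-site on either strand, and the letters occurred in 14.0% of the 35116 RefSeq promoter windows of the same length. RefSeq windows were also found for CRHBP, DNASE1L3 and FCGR2B. Those of CRHBP and DNASE1L3, which overlap annotated exons of these genes, held 0 copies. For FCGR2B, 1 window held 1 copy and the other held 0. The letters GGAA or TTCC, the core of ETS factor sites, were found 6 times in the STAB1 window and 2 times in the STAB2 window; 92.7% of all windows held them, with a median of 3 copies. Neither the STAB1 nor the STAB2 window held GATAA or TATAA on either strand, which 20.4% and 18.9% of all windows did. Only these exact letters were searched. Near forms, such as tgatag in the STAB1 window and tatata in the STAB2 window, were not counted. The GC content was 67.6% for STAB1 and 55.6% for STAB2. These are matches of letters and not measured binding sites.

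Of the 9 genes, 7 had every iREC sample above every iEC sample in CPM: STAB1, STAB2, MRC1, FCGR2B, OIT3, CRHBP and DNASE1L3. LYVE1 and FCN3 overlapped between the groups. The filter on low counts was passed by 8 of the 9, and FCGR2B did not pass it. The filter asks for 0.645 CPM of the raw library in at least 4 of the 8 samples. All 4 iREC samples of each of the 8 genes reached that level, but in iEC it was reached by 0 samples for STAB2 and CRHBP, by 1 for OIT3 and by 3 for MRC1 and FCN3, so 5 of the 8 needed their iREC samples to pass. Over all 15330 genes that passed, 14.5% had every iREC sample above every iEC sample. Since the 9 genes were chosen on this contrast, nothing is read from their count against that share.

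**Figure D1:**
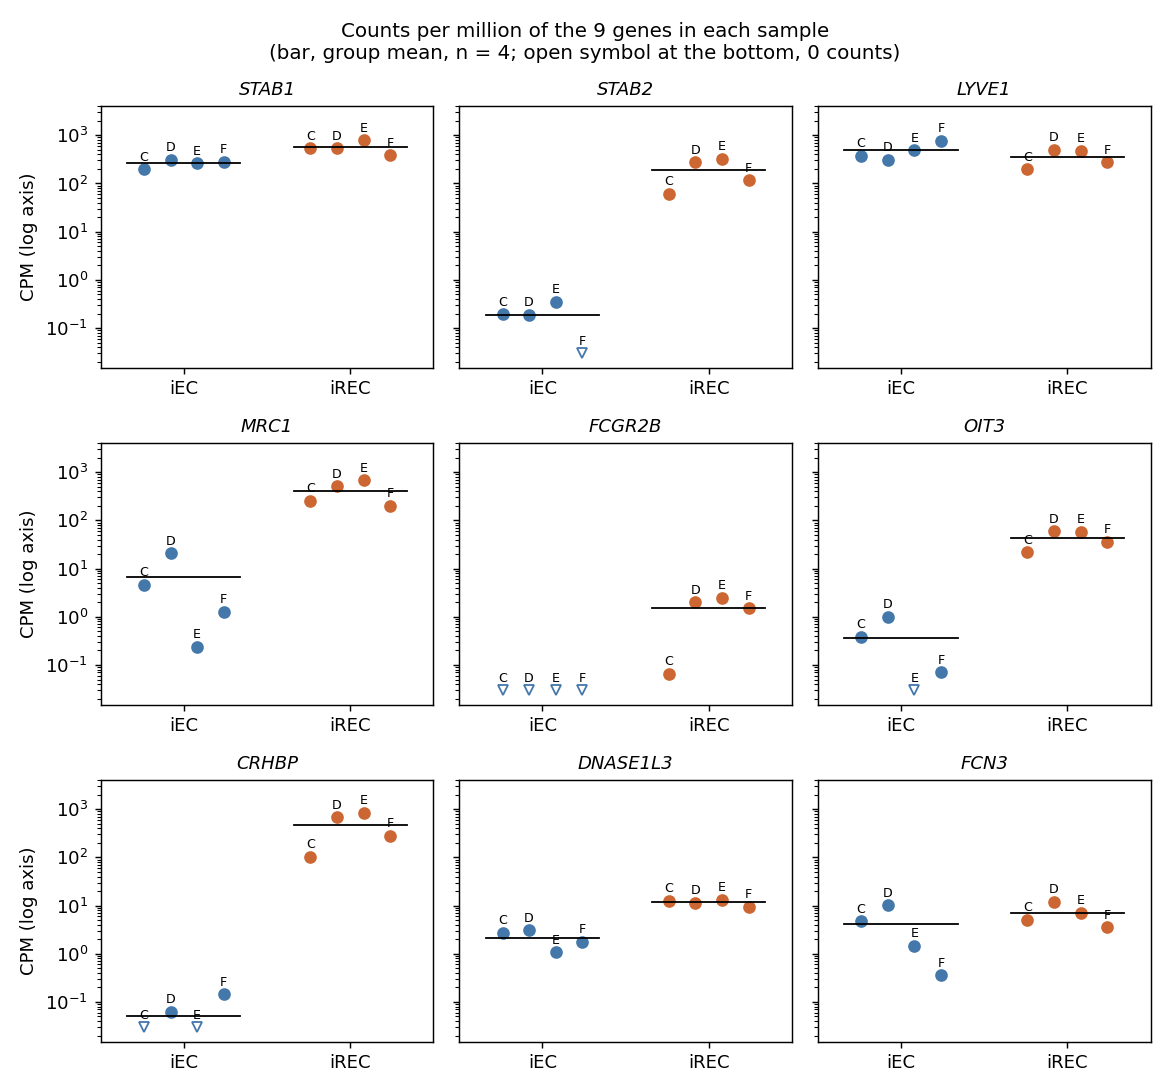
CPM (log axis) of each gene in the 4 iEC and 4 iREC samples, lettered by replicate, with a bar at the group mean. CRHBP, STAB2 and OIT3 are near the bottom in iEC and between 22.0 and 847 CPM in iREC, while LYVE1 and FCN3 overlap between the groups.

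Among the scavenger receptors, STAB1 (ENSG00000010327, chromosome 3, 52495338 to 52524495, plus strand, GRCh38) was expressed in both groups. Stabilin-1 is a receptor of sinusoidal endothelium and of some macrophages that takes up modified lipoproteins and matrix fragments. It had 198, 312, 265 and 281 CPM in iEC C, D, E and F and 543, 537, 792 and 387 CPM in iREC replicates C, D, E and F. The lowest iREC sample, F, was above the highest iEC sample, D. Group means were 264 ± 48.2 CPM in iEC and 565 ± 168 CPM in iREC (SD, n = 4 here and for every mean below), a log2 difference of 1.10 ± 0.23 (SE). By its iREC mean it stood above 98.7% of the genes that passed the filter.

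STAB2 (ENSG00000136011, chromosome 12, 103587273 to 103766727, plus strand) was close to the floor in iEC, where C, D, E and F had 3, 3, 6 and 0 counts. Stabilin-2 is the main receptor by which liver and spleen sinusoids clear hyaluronan from the circulation. The iREC samples C, D, E and F had 938, 3820, 5316 and 1785 counts, or 61.4, 273, 325 and 117 CPM. Replicates D and E were high and C was lowest, yet no iREC sample came near the iEC range. The pooled counts, scaled by library, were 1007-fold higher in iREC, with a 95% exact Poisson interval of 576 to 1948 that covers counting error only. Of its exon bases, 1.72% are shared with an antisense transcript, AC025265.1, which had 0.834 CPM on average in iREC; whether counting used the strand is not given in the sources used here.

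MRC1 (ENSG00000260314, chromosome 10, 17809344 to 17911170, plus strand) encodes the macrophage mannose receptor CD206, which on sinusoidal endothelium takes up mannose-bearing glycoproteins and denatured collagen. Counts were 71, 328, 4 and 18 in iEC C, D, E and F and 3942, 7173, 11085 and 3091 in iREC. In CPM, iEC D stood at 20.7 and the other iEC samples at 4.62, 0.237 and 1.29, a range of 87.6-fold within the group. The iREC samples C, D, E and F had 258, 512, 677 and 202 CPM, so the lowest of them was far above iEC D. The log2 difference was 5.94 ± 1.10 (SE), and 7.66 without iEC D, the sample that raises the iEC mean. Of the 11 macrophage and myeloid markers in the table, 6 were at the floor in the iREC samples, in which MRC1 was at 202 to 677 CPM. The other 5 were above it in at least 1 iREC sample: PTPRC at 0.794 to 2.75 CPM, AIF1 at 0.131 to 1.04 CPM, CSF1R at 0.131 to 0.916 CPM, CD163 at 0 to 0.611 CPM and MS4A7 at 0 to 0.357 CPM. AIF1 and CSF1R had the same order of the iREC samples as MRC1, from F through C and D to E, on at most 17 and 15 counts. The part of these markers in the MRC1 values was not tested.

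LYVE1 (ENSG00000133800, chromosome 11, 10556966 to 10611689, minus strand) did not separate the groups. It encodes a hyaluronan receptor of lymphatic endothelium that liver and spleen sinusoids also carry. Levels were 374, 314, 487 and 777 CPM in iEC C, D, E and F and 198, 501, 473 and 274 CPM in iREC. The highest value belonged to iEC F and the lowest to iREC C, and iREC D and E lay inside the iEC range. Group means were 488 ± 206 and 362 ± 149 CPM for iEC and iREC, a log2 difference of -0.43 ± 0.36 (SE). Of the lymphatic markers, FLT4 was at 164 to 255 CPM in iEC and 165 to 250.4 CPM in iREC, PROX1 had at most 7 counts and RELN at most 9. PDPN was at 0.0632 to 3.79 CPM in iEC and at 0.131, 1.07, 0.366 and 15.2 CPM in iREC replicates C, D, E and F.

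FCGR2B (ENSG00000072694, chromosome 1, 161663147 to 161678654, plus strand) encodes the inhibitory Fc gamma receptor, which liver sinusoidal endothelium uses to remove small immune complexes. It was the least expressed of the 9 genes, with 0 counts in all 4 iEC samples and 1, 28, 41 and 23 counts in iREC C, D, E and F. The iREC mean was 1.52 ± 1.05 CPM, with replicate C resting on 1 count. Pooled over the group and scaled by library, the iREC counts were at least 31.6-fold higher than a floor of 3 counts over the iEC group. Of its 50-base stretches, 12.1% also occur in FCGR2C and 2.65% in FCGR2A, so the authors' counting could have moved reads between these genes; the other 8 genes shared no such stretch with the transcripts of any other gene read on the same strand.

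Of the secreted proteins, CRHBP (ENSG00000145708, chromosome 5, 76952713 to 76981158, plus strand) stood farthest apart. It encodes the protein that binds corticotropin releasing hormone and urocortin, and it is a known transcript of human liver sinusoidal endothelium. The 4 iEC samples C, D, E and F had 0, 1, 0 and 2 counts, and the iREC samples had 1562, 9531, 13869 and 4327. In CPM the iREC samples were 102, 680, 847 and 283, with D and E high and C lowest. The ratio of pooled counts was 9944 with a 95% exact Poisson interval of 3403 to 48222; it rests on 3 counts in iEC, and the interval does not hold the spread between iREC samples. CRHBP was above 98.3% of the tested genes by its iREC mean of 478 ± 345 CPM.

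The ligands that CRHBP binds, and the receptors of those ligands, were at the edge of detection where the table held them. Of 6 genes of the corticotropin releasing hormone system, UCN, UCN2 and CRHR2 were in the table, none passed the filter on low counts, and the highest count of any of them in a sample was 9.

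OIT3 (ENSG00000138315, chromosome 10, 72893581 to 72933033, plus strand) encodes a secreted zona pellucida domain protein of liver. It had 6, 16, 0 and 1 counts in iEC C, D, E and F and 336, 827, 955 and 552 counts in iREC. The iREC samples were at 22.0, 59.0, 58.3 and 36.2 CPM, with D and E close together and C lowest. Pooled counts were 118-fold higher in iREC (95% exact Poisson interval 78.8 to 187). Most of the iEC counts came from D, the same sample that was high for MRC1, and the fitted log2 difference was 6.86 ± 0.75 (SE) with it and 8.10 without it.

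DNASE1L3 (ENSG00000163687, chromosome 3, 58192257 to 58214697, minus strand) encodes the secreted DNase that digests chromatin in blood plasma. Its counts were low in both groups, at 42, 49, 18 and 25 in iEC C, D, E and F and 191, 161, 216 and 143 in iREC. The iREC values of 12.5, 11.5, 13.2 and 9.37 CPM lay closer together than those of any other of the 9 genes, and all were above the highest iEC value of 3.10 CPM. The log2 difference was 2.42 ± 0.34 (SE), which is 5.4-fold by pooled counts.

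FCN3 (ENSG00000142748, chromosome 1, 27369112 to 27374824, minus strand) encodes ficolin-3, a soluble lectin that starts the lectin pathway of complement. It had 4.68, 10.2, 1.48 and 0.358 CPM in iEC C, D, E and F and 5.10, 12.1, 7.02 and 3.54 CPM in iREC. In both groups replicate D was highest and F lowest, and the groups overlapped. The log2 difference was 0.73 ± 0.79 (SE), and it moved between 0.32 without iREC D and 1.68 without iEC D.

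Levels can be set side by side between genes only per length, for which the deposited FPKM values were used (counts scaled by size factor, gene length and a common library size). In iREC the order of the mean FPKM was CRHBP at 167 ± 120, LYVE1 at 101 ± 41.0, MRC1 at 77.8 ± 41.5 and STAB1 at 52.3 ± 15.2. Each of these 4 overlapped its neighbour in the order, so their ranges over the samples do not separate them. Within samples, D, E and F had this same order, and C had LYVE1, STAB1, MRC1 and CRHBP from high to low. LYVE1 was thus above MRC1 and STAB1 in all 4 iREC samples. STAB2 at 20.5 ± 13.1 and OIT3 at 18.2 ± 7.41 FPKM came next, overlapping each other and lying below all iREC values of STAB1. DNASE1L3 at 3.63 ± 0.50 and FCN3 at 3.14 ± 1.66 FPKM overlapped as well, and FCGR2B at 0.224 ± 0.154 FPKM was below both.

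The order in iEC was a different one. LYVE1 led with 139 ± 62.1 FPKM, followed by STAB1 with 24.8 ± 4.66 FPKM, and the other 7 genes had means of 1.89 FPKM or less. LYVE1 and STAB1 held the first 2 places in all 4 iEC samples. In iREC, CRHBP held the first place in D, E and F, whereas in C it was LYVE1. Among the stabilins, the ratio of STAB2 to STAB1 in FPKM was 0.129, 0.579, 0.467 and 0.344 in iREC C, D, E and F and at most 0.0015 in iEC. STAB1 therefore exceeded STAB2 in every sample of both groups.

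**Figure D2:**
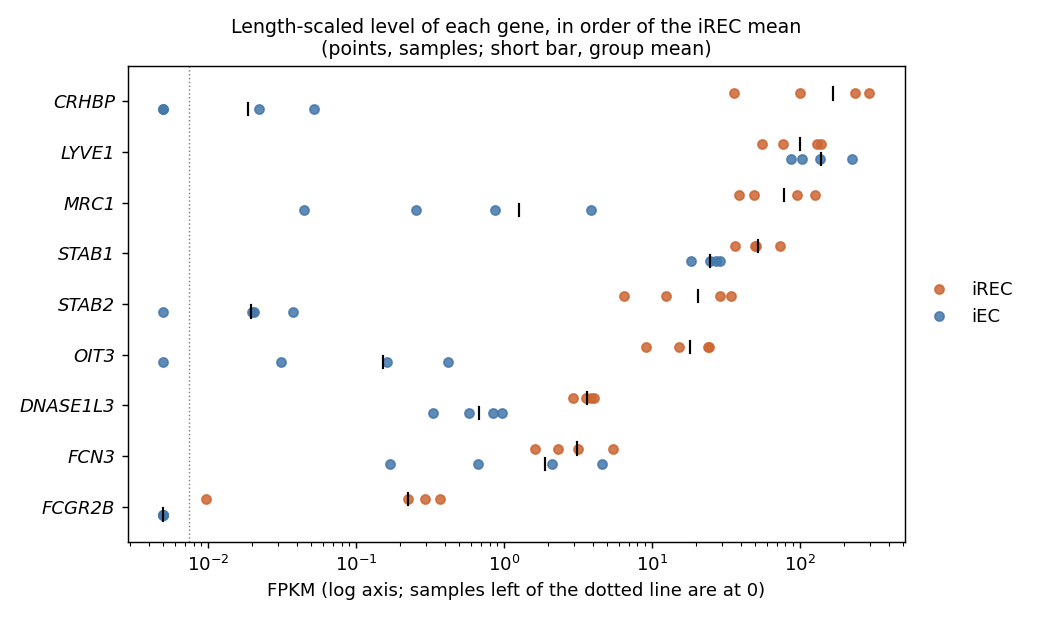
FPKM (log axis) of each gene in every sample, genes ordered by the iREC mean, with a short bar at each group mean and samples at 0 drawn left of the dotted line. The top 4 genes in iREC overlap each other between 35.8 and 295 FPKM, and LYVE1 is the gene whose iEC mean of 139 FPKM lies to the right of its iREC mean of 101 FPKM.

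The iREC samples differed among themselves, and by gene. The highest iREC sample was 8.29 times the lowest for CRHBP, 5.29 times for STAB2, 3.41 times for FCN3, 3.34 times for MRC1, 2.68 times for OIT3, 2.53 times for LYVE1, 2.04 times for STAB1 and 1.41 times for DNASE1L3. For FCGR2B the ratio was 38.3, on 1 count in the lowest sample. In 7 of the 9 genes (all but STAB1 and DNASE1L3), or 6 of the 8 that passed the filter, both D and E lay above both C and F. Over all genes that passed the filter, 20.6% did so. This ordering was noticed after the values were seen, and the 9 genes share the same 4 libraries, so the genes are not independent of each other.

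Setting the genes against the summed endothelial markers of the same library narrowed some of these ranges and not others. The summed markers were 7349, 7793, 9588 and 4306 CPM in iREC replicates C, D, E and F. Relative to them, the highest to lowest ratio went from 2.04 to 1.30 for STAB1 and from 3.34 to 2.01 for MRC1, but only from 8.29 to 6.35 for CRHBP and from 5.29 to 4.19 for STAB2. It also narrowed for LYVE1 and FCN3. The ratio widened from 2.68 to 2.81 for OIT3, from 1.41 to 1.58 for DNASE1L3 and from 38.3 to 39.3 for FCGR2B. On that scale iREC C stayed lowest for both CRHBP (13.9 per 1000 CPM of endothelial markers, against 65.8 to 88.3 in the other samples) and STAB2 (8.35 against 27.1 to 35.0). The mural and mesenchymal sum of iREC C, at 213 CPM, was the lowest of the 4 iREC samples. For iREC F, low in the CPM of STAB1 and MRC1, the summed endothelial markers were lowest and the mural sum was highest. Their part in those values was not tested. Without iREC F the log2 differences were 1.24 for STAB1 and 6.16 for MRC1.

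**Figure D3:**
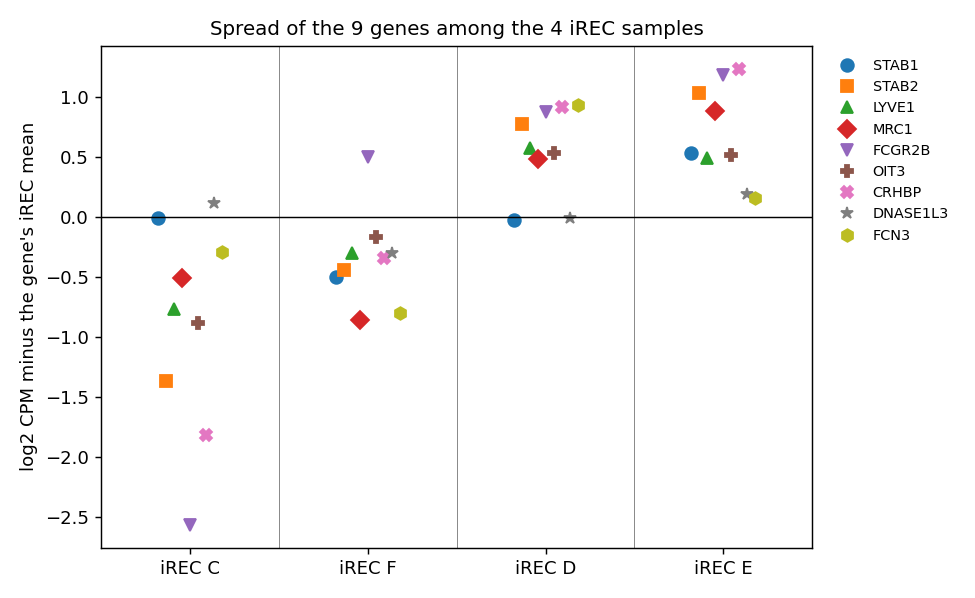
Each gene's log2 CPM in the 4 iREC samples minus its mean over them. Points for D and E lie mostly above 0 and those for C and F mostly below, with CRHBP, STAB2 and FCGR2B the widest and DNASE1L3 within 0.30 of its mean.

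For each of the 7 genes with at least 10 CPM on average in iREC, the 3 protein-coding genes of most similar profile were found by the root mean square difference of mean-centred log2 CPM over the 8 samples, among 13025 genes that passed the filter. The genes nearest to STAB1 were TPST2 (0.132), FBXO25 (0.152) and TM2D2 (0.170). Those nearest to LYVE1 were GDPD1 (0.189), ENG (0.221), the endothelial TGF-beta co-receptor endoglin, and HIST1H2AC (0.234). Those nearest to DNASE1L3 were DSC2 (0.196), ADGRA2 (0.233) and PRCP (0.242). All of these were nearer to their member of the 9 than any gene was to STAB2, CRHBP, OIT3 or MRC1.

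The other 4 genes had more distant neighbours. STAB2 was nearest to ALDH1A1 (0.649), a retinaldehyde dehydrogenase, then to VIPR1 (0.898) and IGF2 (0.909). CRHBP was nearest to IL33 (0.805), a nuclear cytokine of endothelium, then to IGF2 (1.02) and DLK1 (1.14). OIT3 was nearest to ART4 (0.417), SEMA5B (0.426) and DIO3 (0.594), and MRC1 to SEMA5B (0.786), ART4 (0.860) and AFAP1L2 (1.02). No gene outside the 9 was nearer to MRC1 than OIT3 was (0.758), whereas 8 of the 13025 were nearer to OIT3 than MRC1 was. Between CRHBP and STAB2 the difference was 1.25, with 3 other genes nearer to CRHBP and 5 nearer to STAB2. All of these distances share the same 8 libraries, and for genes near 0 counts in iEC they depend on the prior count of 2 in log2 CPM.

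Related genes outside the 9 were compared between the groups with edgeR's quasi-likelihood test, with p-values adjusted over all 15330 genes by the Benjamini-Hochberg method. They fall into 10 lists of 116 genes, some of them in more than 1 list. The table held 103 of them. Of the 79 that were tested, 27 rose in iREC, 11 fell and 41 were not called, so that 48.1% were called, against 25.0% of all genes tested (13.2% rose and 11.7% fell). Their median log2 fold change was 0.42, against 0.020 for all genes. The lists were chosen with earlier results of these data known, so these shares describe them and are not independent evidence of a direction. RSPO3, CLEC4M, CLEC1B, GPR182 and HAS3 were under the filter's 0.645 CPM in every iEC sample, and MSR1 in every iREC sample. They passed only through the group in which they were high, so their calls and p-values add no independent support.

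Of the other genes of sinusoidal endothelium, 15 were tested: 11 rose, 1 fell and 3 were not called, with a median log2 fold change of 2.20. This count and median include RSPO3, CLEC4M, CLEC1B and GPR182, which passed the filter only through iREC. CD36, the scavenger receptor for oxidised lipids and fatty acids, rose from 0.987 ± 0.635 CPM to 143 ± 91.7 CPM (log2 change 7.20 ± 0.71 SE, adjusted p = 0.000158). RSPO3, the R-spondin that liver endothelium secretes, had 4 counts in all of iEC and 731, 250, 355 and 123 in iREC C, D, E and F, a ratio of pooled counts of 372 (95% exact Poisson interval 145 to 1364; adjusted p = 0.000123). Its order among the iREC samples, with C highest, was unlike that of CRHBP and STAB2. IL1R1, the interleukin 1 receptor, rose from 6.0 to 87.3 CPM (adjusted p = 0.00051). CTSL, a lysosomal cathepsin, fell from 213 to 119 CPM (log2 change -0.83 ± 0.17 SE, adjusted p = 0.00688). The lectins CLEC4M and CLEC1B, named here after their values were seen, were called with 275 and 61 counts over all iREC samples against 3 and 1 in iEC, ratios of 93.4 (95% exact Poisson interval 31.9 to 453) and 62.1 (11.2 to 2454).

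Of 9 tested regulators known from sinusoidal endothelium, 4 rose, 2 fell and 3 were not called, with a median log2 fold change of 0.99. MAF, a large MAF transcription factor of liver sinusoidal endothelium, rose from 7.02 ± 10.1 to 68.7 ± 27.6 CPM (log2 change 3.29 ± 0.91 SE, adjusted p = 0.0269). In iEC it was highest in D with 349 counts, against 9 to 42 in the other iEC samples. Sample iEC D was also highest for MRC1, OIT3, STAB1, DNASE1L3 and FCN3, whereas STAB2 was highest in E and LYVE1 and CRHBP in F. How many of all genes were highest in iEC D was not counted, and a link of MAF to any of these genes was not tested. The call for MAF was lost in 4 of the 8 fits that leave out a sample, with adjusted p-values of 0.000721 to 0.0673 over all alternatives. MEIS2 and ZEB2 rose by 1.14 and 1.63 on the log2 scale (adjusted p = 0.00181 and 0.00367). TCF4 fell from 242 to 85.7 CPM (adjusted p = 0.000445) and NR2F2, the venous factor COUP-TFII, from 158 to 64.0 CPM (adjusted p = 0.0392, lost in 6 of the 8 fits that leave out a sample). GATA4, the factor that specifies liver sinusoidal endothelium in mice, was not called (adjusted p = 0.0658). Its iREC counts of 6, 99, 42 and 1129 in C, D, E and F were largest in F, the sample with the highest mural and mesenchymal sum. The part of that sum in GATA4 was not tested. Of the 9 genes, 6 were highest in E and 3 in D, and a link of GATA4 to them was not tested.

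Other scavenger receptors were mixed, with 5 of 14 tested higher, 2 lower and 7 not called, and a median log2 fold change of 0.43. COLEC12, a collectin-type scavenger receptor, rose from 45.9 ± 45.4 to 321 ± 131 CPM (adjusted p = 0.0167). OLR1, the oxidised lipoprotein receptor LOX-1, was called (adjusted p = 0.0158), but its groups overlapped, at 0.0632 to 1.29 CPM in iEC and 0.654 to 52.9 CPM in iREC, and limma-voom did not call it. In iREC it also had the order of the mural and mesenchymal sum, with 0.654, 19.6, 6.90 and 52.9 CPM in C, D, E and F, and the part of that sum was not tested. SCARF1, an endothelial receptor for modified lipoproteins, fell from 205 to 118 CPM (adjusted p = 0.0305, lost in 4 of the 8 fits that leave out a sample). MSR1, the macrophage scavenger receptor, named after its values were seen, had 277 counts in iEC and 2 in iREC, opposite in direction to STAB2 and MRC1 (adjusted p = 0.000626).

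In the mannose receptor family and the uptake lectins, 4 of 6 tested genes rose, 1 fell and 1 was not called, with a median log2 fold change of 1.88. MRC2, the closest relative of MRC1 and a collagen receptor, rose from 5.52 to 22.4 CPM (log2 change 2.03 ± 0.49 SE, adjusted p = 0.0152). CLEC14A, an endothelial lectin, rose from 211 to 702 CPM (adjusted p = 0.00418). ASGR1, a subunit of the asialoglycoprotein receptor, fell from 10.6 to 3.18 CPM (adjusted p = 0.000638). CLEC4M and CLEC1B, given above, are the other genes of this list that were called.

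The hyaluronan genes, which bear on the ligand of STAB2 and LYVE1, were divided: of 11 tested, 3 rose, 3 fell and 5 were not called, with a median log2 fold change of 0.73. HAS3, a hyaluronan synthase, rose from 0.476 ± 0.144 to 13.4 ± 9.04 CPM (adjusted p = 0.00117). Its 2.36, 19.98, 9.77 and 21.5 CPM in iREC replicates C, D, E and F had the order of the mural and mesenchymal sum (213, 665, 286 and 3486 CPM), whose part in this was not tested. CEMIP, which breaks hyaluronan into fragments, and its relative CEMIP2 rose from 2.09 to 13.6 CPM and from 211 to 568 CPM (adjusted p = 0.0125 and 9.78e-05). CD44, the widespread cell surface hyaluronan receptor, fell from 300.2 ± 107 to 51.3 ± 15.3 CPM (log2 change -2.55 ± 0.31 SE, adjusted p = 0.000458). In iEC, CD44 had 185, 237, 409 and 370 CPM in C, D, E and F, and in iREC 33.9, 69.4, 45.1 and 56.7 CPM, so the groups stood apart in the direction opposite to STAB2. HYAL2 and HYAL3, both hyaluronidases, fell by 0.79 and 0.58 on the log2 scale (adjusted p = 0.012 and 0.0477), and the call for HYAL3 was lost in 10 of 15 alternatives.

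Around FCGR2B, 3 genes of the Fc receptor list were tested and all were called, 2 higher and 1 lower, with a median log2 fold change of 1.49. FCGRT, the neonatal Fc receptor that recycles IgG and albumin, rose from 85.3 to 250.4 CPM (adjusted p = 0.00178). INPP5D, the phosphatase SHIP1 that acts below FCGR2B, rose from 24 to 67.4 CPM (adjusted p = 0.0166, lost without iEC C). FCER1G, the signalling chain of activating Fc receptors, fell from 26.1 to 4.27 CPM (log2 change -2.61 ± 0.39 SE, adjusted p = 0.00139).

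Around DNASE1L3, 4 other DNases were tested, of which DNASE1L1 fell from 41.2 to 14.0 CPM (adjusted p = 0.022, lost in 4 of 15 alternatives) and 3 were not called; the median log2 fold change was 0.054. Around FCN3, 5 genes of the lectin pathway of complement were tested and 1 was called, with a median log2 fold change of 0.48. That gene was MASP1, a serine protease that ficolins carry, which rose from 5.44 ± 2.73 to 168 ± 33.8 CPM (log2 change 4.96 ± 0.40 SE, adjusted p = 6.63e-05). In contrast to FCN3 itself, every iREC sample of MASP1 (122 to 202 CPM) was far above every iEC sample (2.13 to 8.03 CPM).

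The clathrin coat, adaptor and early endosome genes by which these receptors are taken up were close to level: of 16 tested, 15 were not called and 1 rose, a share of 6.25%, with a median log2 fold change of -0.17. The 1 that rose was DAB2, a clathrin adaptor for lipoprotein receptors, from 149 to 768 CPM (log2 change 2.36 ± 0.29 SE, adjusted p = 0.000477).

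**Figure D4:**
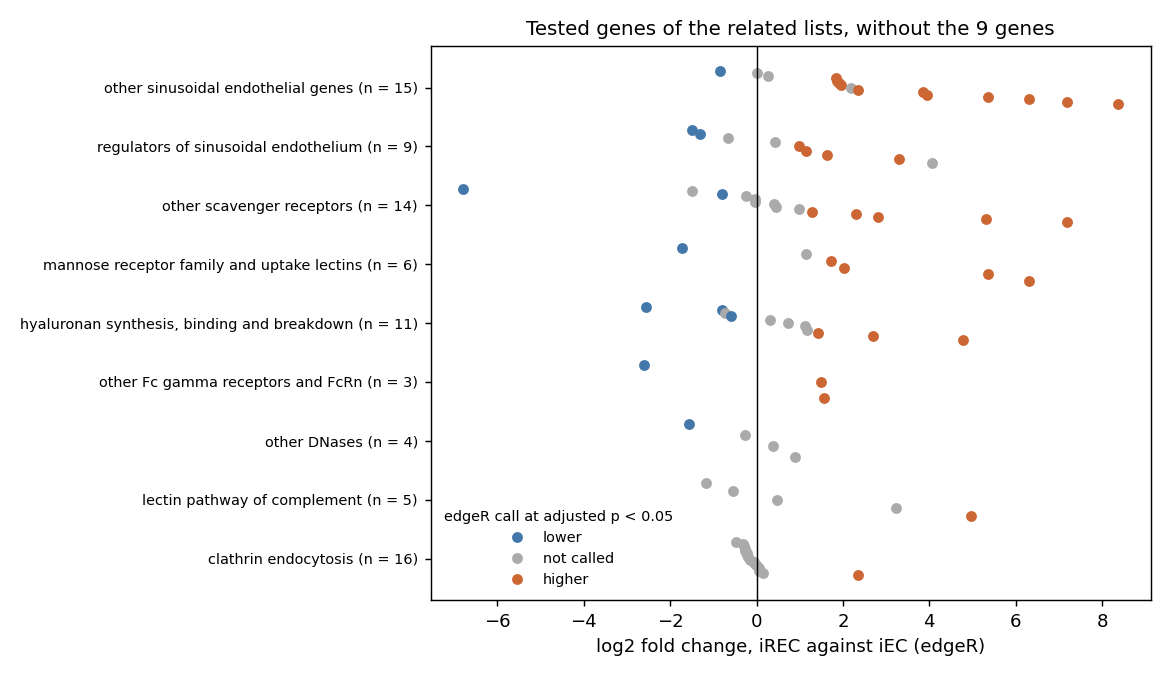
Log2 fold changes (iREC against iEC, edgeR) of the tested genes in 9 related lists, coloured by call at an adjusted p under 0.05; the hormone list had no tested gene and is not drawn. The sinusoidal list lies mostly to the right of 0, the hyaluronan list on both sides, and the clathrin list close to 0 apart from DAB2.

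The nearest protein-coding gene on each side of each of the 9 genes gave 18 flanking genes, of which 13 were tested. Of these, 5 rose, 0 fell and 8 were not called, so that 38.5% were called, against 25.0% of all genes tested (13.2% rose and 11.7% fell). With only 13 genes, nothing is read from this share. Next to DNASE1L3, ABHD6, a lipase of monoacylglycerol, rose from 12.5 ± 4.09 to 121 ± 52.4 CPM (log2 change 3.27 ± 0.37 SE, adjusted p = 0.000335). The log2 difference of DNASE1L3 was 2.42 ± 0.34, and the difference between the 2 genes was not tested. On either side of STAB2, C12orf42 had 0 counts in iEC and 14, 43, 51 and 34 counts in iREC C, D, E and F, at least 48.2-fold higher against 3 counts over the iEC group (adjusted p = 0.00168), and NT5DC3 rose from 7.90 to 18.1 CPM (adjusted p = 0.00774). With 0 counts in iEC, C12orf42 passed the filter only through iREC, so its call and p-value add no independent support. In C12orf42, iREC C was lowest and E had the highest count, as in STAB2.

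NT5DC2 lies after STAB1 on the opposite strand and rose from 65.0 to 147 CPM (log2 change 1.17 ± 0.18 SE, adjusted p = 0.00155). It shares 111 exon bases with STAB1, which is 1.05% of the STAB1 exon bases, so reads there cannot be told apart without strand. The span of MRVI1 overlaps that of LYVE1 by 38599 bases on the same strand with 0 shared exon bases, and MRVI1 rose from 8.18 to 20.6 CPM (adjusted p = 0.0064) while LYVE1 overlapped between the groups. The neighbours of CRHBP, OIT3 and MRC1 that were tested (AGGF1, MCU, TMEM236 and CACNB2) were not called. MCU, next to OIT3, still had every iREC sample above every iEC sample, with means of 35.4 and 45.4 CPM in iEC and iREC (edgeR adjusted p = 0.0745). TMEM236 and CACNB2, next to MRC1, were near 1 CPM with SEs of 0.75 and 0.77, so their lack of a call says little.

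**Figure D5:**
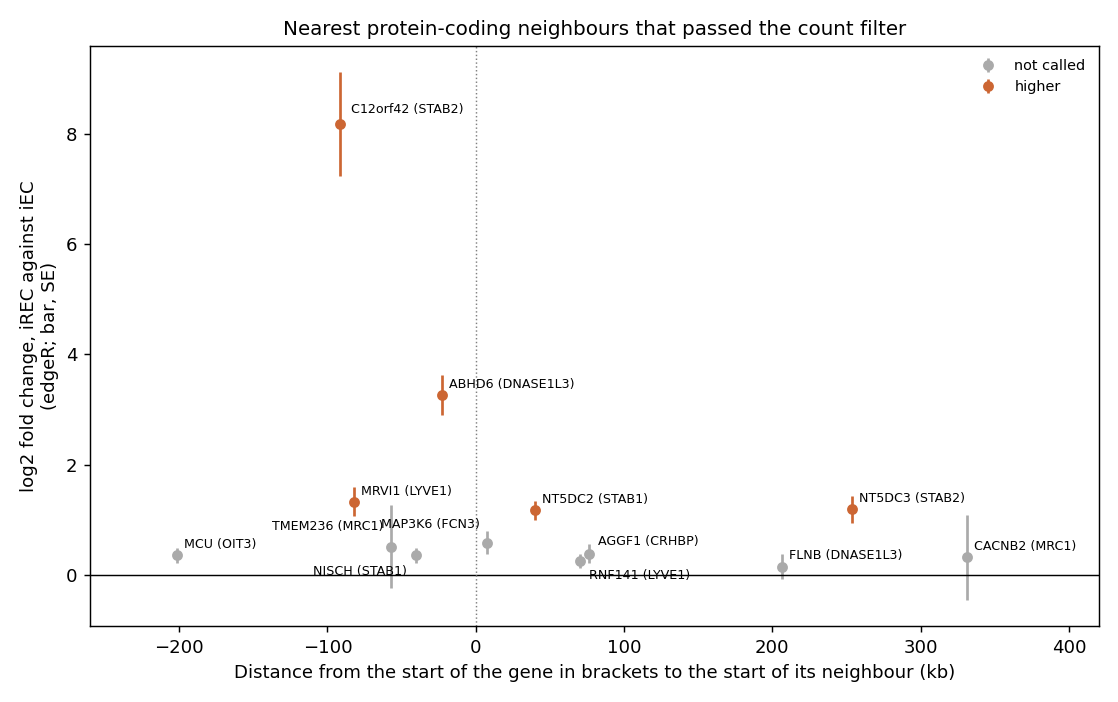
Log2 fold change with its SE (iREC against iEC, edgeR) of the 13 tested flanking genes, against the distance in kilobases from the start of the gene in brackets. C12orf42 and ABHD6 stand highest, and the fitted value of C12orf42 depends on the prior count since all its iEC samples are at 0. The neighbours of CRHBP, OIT3 and MRC1 lie between 0.32 and 0.52.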

How the data were processed

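RNA-seq of 4 iEC and 4 iREC samples was used. Poly-T selection and a dUTP second strand are recorded, per the labels' protocols; the submitters' processing notes name fastp, HISAT2 2.0.5 and hg38. The counting program and its strand setting are not given in the sources used here. The deposited table holds raw read counts per gene, per the file headers. Its deposited normalized columns (a signal per sample) equal the count divided by a median-of-ratios size factor, and the deposited FPKM columns equal that signal scaled by gene length and a common library size of 15383181. For calls, the log2 fold changes and p-values in the table deposited by the authors were not used. No gene in the table had fewer than 2 counts in all. All 30386 gene positions matched GENCODE on GRCh38.

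From the counts, genes were kept by filterByExpr (15330), scaled by TMM and tested with the quasi-likelihood test of edgeR 4.0.16 (R 4.3.3) with group as the only term, adjusted by Benjamini-Hochberg and called under 0.05. DESeq2 1.42.0 and limma 3.58.1 (voom) were alternatives, with other scalings, filters, a replicate block and each sample left out. Log2 CPM used a prior count of 2. Intervals and floors (3 counts) cover counting error only.

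The 9 genes, the related lists and the marker lists were chosen with earlier results of these data known. Beside the 9, the text names up to 3 called genes per list and direction with the largest change and a mean of at least 5 CPM in either group, every called flanking gene, and the 3 genes of nearest profile. Of endothelial, macrophage and lymphatic markers, those at the floor or called are named. Of retinal and brain markers, TFRC and those called are named, after their values were seen. P-values set the difference between the groups against the spread between these samples, which may be technical. RefSeq promoter windows were found for 5 of the 9 genes. Reads without molecular identifiers are not independent molecules.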

Additional observations from a re-analysis of the deposited data

Results flagged for a closer look

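Of 96 groups of 4 samples screened for a sample far from the others, 1 was flagged, where chance would flag about 4.8 (about 1 in 20). SCARF1 in iEC F was at 177 CPM, below 210, 214 and 218 CPM in iEC C, D and E, with a gap of 0.832 of the group's range, just above the critical value.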

How the results depend on the processing

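No called value, and no log2 difference of the 8 genes among the 9 that passed the filter, turned direction under any alternative run. FCGR2B was fitted only without the filter, so no alternative was run for its log2 difference. Of the values not called, the log2 change of FLT4, 0.0079 as reported, was below 0 in 5 alternatives (lowest -0.11, without iREC E), that of PDPN went from 1.72 to -1.29 without iREC F, and the median over all genes went from 0.020 to -0.0032 with the stricter filter. The number of genes called lay between 3281 (stricter filter) and 4664 (DESeq2) over the settings that kept all samples, and between 2660 (without iREC D) and 4214 (without iREC F) when a sample was left out. With a replicate block it was 3334, with 37 genes of the related lists and 5 flanking genes; same-lettered deviations correlated at 0.168, -0.079, 0.029 and 0.250 for C, D, E and F, so the letters were not taken as pairs. Calls in the related lists ran from 31 to 44 (38 as reported) and flanking calls from 5 to 6. The 7 genes with separate groups were 7 under both other scalings. They were also 7 with each sample left out, but leaving out a sample cannot make separate groups overlap, so those runs could not lower the count. The FPKM order was the same with CPM per kilobase. The log2 difference ran from 5.54 to 7.66 for MRC1, 6.43 to 8.10 for OIT3, 12.54 to 14.02 for CRHBP, 9.35 to 10.44 for STAB2, 0.89 to 1.24 for STAB1, 2.19 to 2.64 for DNASE1L3, -0.63 to -0.12 for LYVE1 and 0.32 to 1.68 for FCN3. Of the other values for single genes, 48 lost their call and 8 gained it; CLDN5 lost it in 11 of 15 alternatives, CDH5 in 5, ESAM in 1 and MRC2 in 1. Depth limits FCGR2B, CLEC1B and the iEC side of CRHBP and STAB2.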
